A study of Saccharomyces cerevisiae with 4 samples.

Results

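Messenger RNA levels of 60 genes for protein components of the spliceosome of budding yeast were compared between an RNA export double mutant and the wild type. The genes were taken by systematic name from 7126 features counted, and comprised 10 genes of the U1 particle, 9 of U2, 12 of the U4/U6.U5 tri-snRNP, 12 of the Prp19 complex, 11 for helicases and step factors, 2 for recognition of the branch point and 4 for Sm proteins. The study compared xpo1-1 mex67-5 cells (n = 2 libraries) with wild-type cells (n = 2 libraries) to look for splicing defects. Xpo1, whose gene is CRM1, carries proteins and some RNAs out of the nucleus, and Mex67 carries most messenger RNA; both mutations are temperature-sensitive alleles. Both strains grew at 25 °C and were held at 37 °C for 1 h before poly(A) RNA was read as single 50 bp reads, so the wild type had the same heat exposure as the mutant. The labels give no mating type, marker or number of clones for either strain, and do not say whether the cultures behind a group's libraries were separate. P-values therefore measure the spread between libraries, which may be technical.

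The spliceosome removes introns in 2 transesterification steps. U1 first pairs with the 5′ splice site and the proteins Msl5 and Mud2 mark the branch point, where U2 then binds. The U4/U6.U5 tri-snRNP and the Prp19 complex join to form the catalytic core, and a series of RNA helicases drives each rearrangement up to release of the messenger RNA and disassembly. Each U particle other than U6 carries a ring of Sm proteins. Few yeast genes have introns, but those that do include most genes for ribosomal proteins, so splicing handles a large share of yeast transcripts.

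The mutant libraries held 62205252 and 50843634 reads assigned to genes, against 49865570 and 49321384 in the wild type. Spliceosome genes took 0.435% and 0.432% of these reads in the mutant, against 0.388% and 0.385% in the wild type. That difference is a net of rises and falls of single genes. The largest single rise in the share of reads was in MUD1, a gene of the U1 particle. PRP46 and PRP8 also rose strongly, while SNU13 and PRP43 had the largest falls in this share. In the mutant MUD1 held 27591 and 23327 of the 270631 and 219665 spliceosome gene reads. In the wild type it held 2634 and 2491 of 193346 and 190041. Both genes of the labelled mutations were read in every library: MEX67 had 1903 and 1947 CPM (reads per 1000000 of the scaled library size) in the mutant, against 152 and 156 CPM in the wild type, while CRM1 had 187 and 190 CPM in the mutant, against 217 and 220 CPM in the wild type. The strains also differed in genes that mark the mating types. All 7 a-cell markers were higher, with summed levels of 486 and 478 CPM in the mutant against 66.1 and 65.3 CPM in the wild type. All 4 alpha-cell markers were lower, with summed levels of 164 and 167 CPM in the mutant against 1728 and 1729 CPM in the wild type. The part of this strain difference in the results below was not tested.

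Spliceosome genes did not move as a block. Of the 60, all of which passed the filter on low counts, 31 were lower and 22 higher in the mutant and 7 were not called (edgeR quasi-likelihood test, Benjamini-Hochberg adjustment over 6563 genes, threshold 0.05). Among all genes tested, 46.3% were lower and 46.8% higher, so calls of either direction were common in this comparison. With a filter of at least 10 CPM in 2 libraries, which shifts log2 changes by 0.13, 28 of the spliceosome genes were lower and 27 higher. The median log2 change of the spliceosome genes was -0.16, against 0.01 for all genes tested, and the median size of the change regardless of direction was 0.70, against 1.08. Called changes with a log2 size of 1 or more were found in 14 spliceosome genes that were lower, where the share among all genes was 25.5%, and in 9 that were higher, where that share was 27.8%. Libraries of the mutant and the wild type did not overlap in 57 of the 60 genes, where the share among all genes was 96.4%; the exceptions were MSL1, PRP28 and YJU2. As values are shares of a library, the total amount of messenger RNA in a cell was not measured, and less RNA per cell cannot be told apart from fewer cells that hold it.

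**Figure D1:**
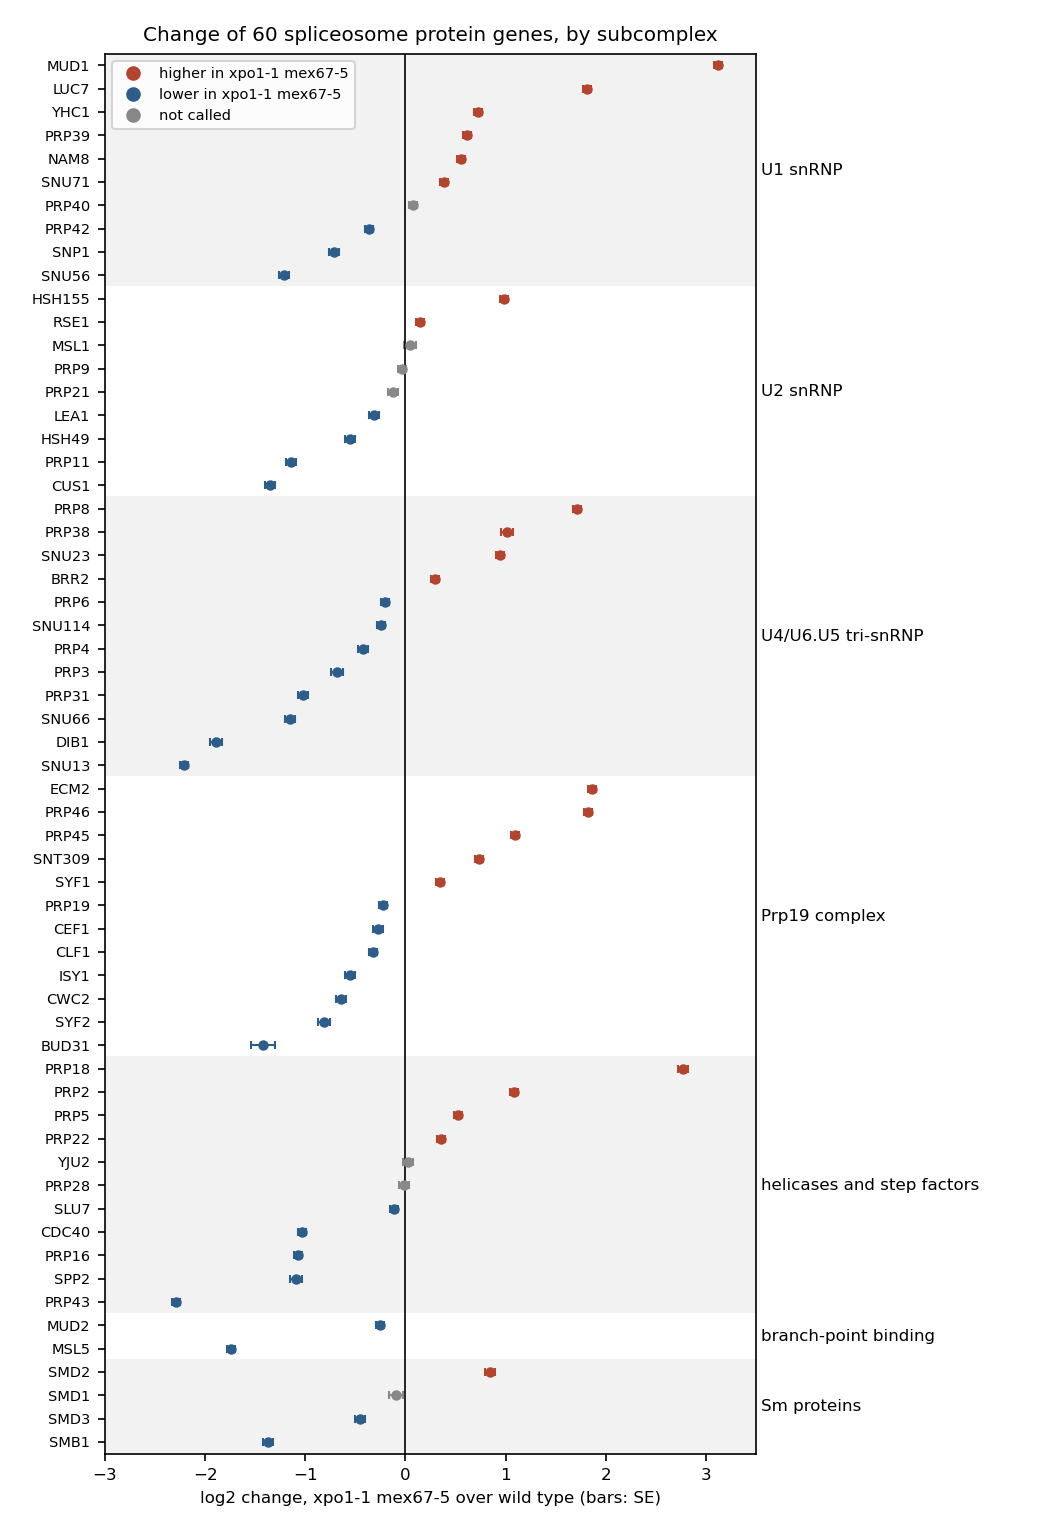
Log2 change of each of the 60 genes in xpo1-1 mex67-5 over wild type (x axis; points are edgeR estimates, bars their SE, 2 libraries a group), by subcomplex down the page. Every subcomplex except the branch-point pair holds genes on both sides of 0, from MUD1 at 3.12 to PRP43 at -2.29.

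The largest changes were in MUD1 and PRP18, which rose, and in PRP43 and SNU13, which fell. The region from 250 bases before to 50 bases after the start codon of these 4 genes is printed because they set the range of the whole group (R64 genome of RefSeq, 5′ to 3′ along the gene). Capitals mark matches, on either strand, to the letters GATGAG of the PAC box and AAAATTTT of the RRPE box, both known from promoters of ribosome assembly genes, to AGGGG of the stress response element, and to GAANNTTC or TTCNNGAA, neighbouring units of the heat shock element, which can overlap each other.
MUD1 promoter (chrII:479088-479387, plus strand): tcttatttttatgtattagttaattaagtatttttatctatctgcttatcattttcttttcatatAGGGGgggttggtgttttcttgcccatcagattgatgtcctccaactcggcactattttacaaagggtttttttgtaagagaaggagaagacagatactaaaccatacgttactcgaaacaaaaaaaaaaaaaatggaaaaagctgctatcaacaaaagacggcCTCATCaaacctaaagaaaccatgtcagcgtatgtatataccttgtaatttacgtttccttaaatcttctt
PRP18 promoter (chrVII:505820-506119, plus strand): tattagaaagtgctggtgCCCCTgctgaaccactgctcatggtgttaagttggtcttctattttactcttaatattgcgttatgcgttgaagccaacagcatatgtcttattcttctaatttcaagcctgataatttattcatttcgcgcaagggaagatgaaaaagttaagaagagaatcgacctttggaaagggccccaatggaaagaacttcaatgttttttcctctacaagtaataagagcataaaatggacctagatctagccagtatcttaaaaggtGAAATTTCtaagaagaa
PRP43 promoter (chrVII:283888-284187, minus strand): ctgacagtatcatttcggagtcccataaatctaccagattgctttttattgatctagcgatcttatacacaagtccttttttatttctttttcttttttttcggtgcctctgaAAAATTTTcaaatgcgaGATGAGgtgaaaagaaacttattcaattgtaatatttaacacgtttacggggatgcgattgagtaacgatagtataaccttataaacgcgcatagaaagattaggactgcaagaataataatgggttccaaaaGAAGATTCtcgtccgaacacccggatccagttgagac
SNU13 promoter (chrV:101693-101992, plus strand): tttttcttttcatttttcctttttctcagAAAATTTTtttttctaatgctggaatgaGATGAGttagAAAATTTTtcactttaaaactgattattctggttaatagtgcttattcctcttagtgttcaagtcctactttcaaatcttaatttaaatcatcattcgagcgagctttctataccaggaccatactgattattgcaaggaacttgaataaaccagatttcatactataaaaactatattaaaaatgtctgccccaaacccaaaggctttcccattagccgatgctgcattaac

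In PRP43 and SNU13 the region before the start codon held PAC and RRPE letters close together, while the matches in MUD1 and PRP18 before the start codon were to the stress response element and, in MUD1, to PAC. The heat shock unit pairs of PRP18 and PRP43 lie after the start codon, and the end of the MUD1 window runs into its intron. Over all subcomplexes, PAC letters were in 14 of 31 promoters of genes that fell (45.2%) and in 5 of 22 of genes that rose (22.7%), against 20.4% of all 5987 promoters of the same length. RRPE letters were in 6 of 31 promoters of genes that fell and in 0 of 22 of genes that rose (95% Wilson interval up to 14.9%), against 9.02% of all promoters. Both boxes together were in 5 promoters, all of genes that fell (SNU13, PRP43, SNU66, CWC2 and BUD31), and in 4.39% of all promoters. Heat shock element letters were in 6 of 22 promoters of genes that rose and 5 of 31 of genes that fell, against 22.6% of all promoters. Stress response element letters were in 4 of 22 promoters of genes that rose and 3 of 31 of genes that fell, against 21.6% of all. GGTGGCAAA, the element bound by Rpn4, was in the promoter of RSE1 alone among the 60 genes, against 1.19% of all promoters. These are matches of letters, counted on groups that the reads defined, and carry no test. Shares among all genes that fell, or all that rose, were not computed. Whether these contrasts are particular to spliceosome genes was therefore not tested.

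The U1 particle was the subcomplex with most genes higher: 6 of 10 rose and 3 fell, with a median log2 change of 0.46. Among all genes tested 46.8% rose and 46.3% fell, shares that also apply to the counts of the other groups below. Called rises with a log2 size of 1 or more numbered 2 of 10 in U1 and 3 of 12 in the Prp19 complex, where the share among all genes was 27.8%. The summed level of the U1 genes was 1159 and 1173 CPM in the mutant, against 591 and 592 CPM in the wild type. Most of that rise lay with MUD1 and LUC7. The sum of the Prp19 complex was also higher, at 941.1 and 959.2 CPM in the mutant against 644.3 and 629.5 CPM in the wild type. Sums of the remaining subcomplexes were lower in the mutant, but that of U2 only slightly. The U2 sum was 404.5 and 404.6 CPM in the mutant, against 419.0 and 417.1 CPM in the wild type. Sums under other scalings were not computed. MUD1 (YBR119W, chromosome II, 479338 to 480323), the yeast counterpart of the human U1 protein A, had 439 and 461 CPM in the mutant, against 53.1 and 50.6 CPM in the wild type. The rise was 8.67-fold, or 3.12 on the log2 scale (SE 0.04), and both mutant libraries stood far above both wild-type libraries. LUC7 (YDL087C), which affects the choice of 5′ splice site, had 127 and 128 CPM in the mutant, against 37.4 and 35.2 CPM in the wild type, a log2 change of 1.81 (SE 0.04).

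The other U1 genes that rose were YHC1, the counterpart of the human U1 protein C, PRP39, NAM8, an RNA-binding protein needed for meiotic introns, and SNU71, with log2 changes of 0.38 to 0.72. SNU56 (YDR240C) had 20.03 and 19.6 CPM in the mutant, against 44.7 and 47.0 CPM in the wild type, and fell by 1.21 on the log2 scale (SE 0.05). SNP1 (YIL061C), the counterpart of U1-70K, had 21.3 and 22.7 CPM in the mutant, against 35.7 and 36.4 CPM in the wild type, a log2 change of -0.71 (SE 0.05). PRP42, whose protein pairs with Prp39, fell by 0.36. For PRP40, which bridges U1 and the branch-point protein, the log2 change was 0.08 (SE 0.04), with an edgeR adjusted p (Benjamini-Hochberg) of 0.053; it was called higher under upper quartile scaling (0.18), with library sizes alone (0.09) and with a filter of 10 CPM (0.21). Of MUD1, LUC7, SNU56 and SNP1, the largest adjusted p by the same test was 6.3e-10.

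Genes next to MUD1 and LUC7 also changed, as did most genes tested (46.8% higher and 46.3% lower), and the reads carry no strand. CBP6, which ends 111 bases from the end of MUD1 on the opposite strand, had means of 123 CPM in the mutant and 25.8 CPM in the wild type, a log2 change of 2.25. TEF2, 290 bases before MUD1 on the same strand, fell by 0.86. ASM4, 210 bases downstream of LUC7 on the same strand, changed by 2.01, and YDL086W, on its other side and the opposite strand, by -1.70. The part of reads from neighbouring transcripts in these values, or in those of any other spliceosome gene, was not tested.

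MUD1 is also 1 of only 2 of the 60 genes that have an intron, the other being SMD2. Both introns are printed from the R64 genome with the 5′ splice site, the branch-point sequence and the last 3 bases in capitals, because they are themselves substrates of the machinery that the genes encode.
MUD1 intron (chrII:479346-479434, plus strand): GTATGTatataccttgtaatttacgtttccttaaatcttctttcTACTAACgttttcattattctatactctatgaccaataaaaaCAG
SMD2 intron (chrXII:694383-694472, plus strand): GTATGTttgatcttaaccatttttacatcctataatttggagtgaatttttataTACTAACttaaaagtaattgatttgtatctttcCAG

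Both introns carry GTATGT at the start and TACTAAC at the branch point, as did 52.2% of the 324 nuclear intron records with an annotated end. The SMD2 intron lies on one of 7 nuclear chromosomes for which every intron record was 0 in every library, so it was treated as not counted. Reads in the MUD1 intron numbered 1108 and 963 in the mutant, against 55 and 49 in the wild type. Relative to the reads of the gene these were 4.02% and 4.13% in the mutant, against 2.09% and 1.97% in the wild type. Per base, intron reads stood at 40.5% and 41.6% of the density over the coding sequence in the mutant, against 21.0% and 19.8% in the wild type.

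The MUD1 intron therefore rose more than the gene. The intron-to-gene ratio was 2.00-fold higher in the mutant, a log2 change of 1.00 (SE 0.12), with an adjusted p of 1.1e-05 by edgeR's quasi-likelihood test (Benjamini-Hochberg over 135 introns). A higher ratio was called for 78.5% of all introns tested, and their median log2 change was 1.03, so MUD1, in place 70 of 135, lay in the middle. With intron libraries scaled by intron reads alone, the log2 change of the MUD1 ratio was 2.27 and the median of all introns was 2.30. Intron reads without the gene as a base rose 17.3-fold (log2 4.12, SE 0.11), where the median of all introns was -0.87. The sources used here do not say whether gene counts include reads in the intron.

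**Figure D2:**
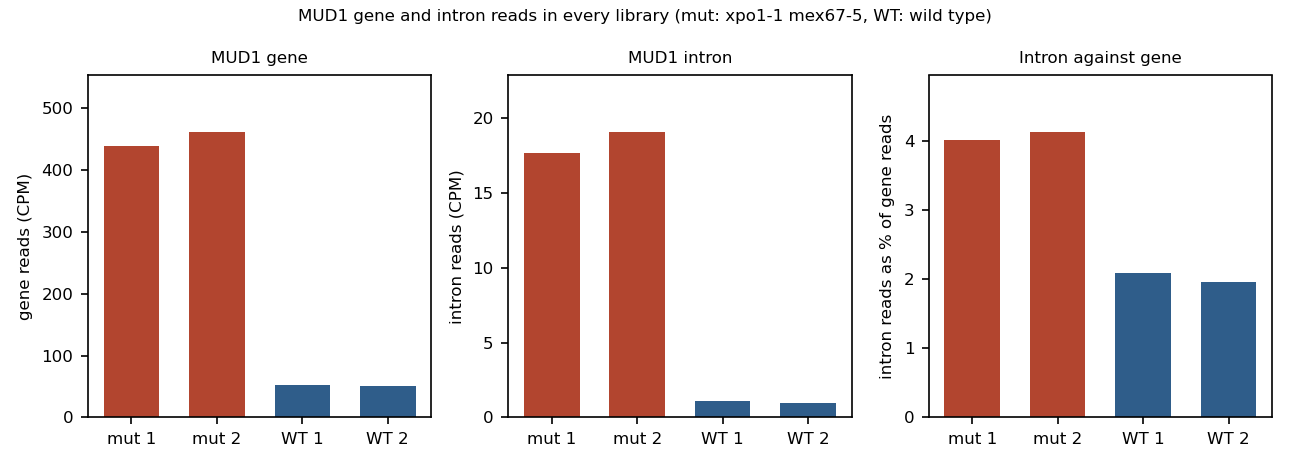
MUD1 gene reads in CPM (left), intron reads in CPM (middle) and intron reads as a percentage of gene reads (right) in each library, with the mutant libraries (mut 1, mut 2) left of the wild-type libraries (WT 1, WT 2). The percentage was 4.02 and 4.13 in the mutant and 2.09 and 1.97 in the wild type.

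In the U2 particle 2 of 9 genes rose, 4 fell and 3 were not called, with a median log2 change of -0.12. The median size of its changes regardless of direction was 0.31, the smallest of the 7 subcomplexes. A filter of at least 10 CPM in 2 libraries, which shifts all log2 changes by 0.13, gave 4 higher and 4 lower. HSH155 (YMR288W), the counterpart of SF3B1 and the scaffold of SF3b around the branch helix, had 115 and 116 CPM in the mutant, against 56.7 and 60.2 CPM in the wild type. It was 1.97-fold higher (log2 0.98, SE 0.04). RSE1 (YML049C), another large SF3b protein, had 98.8 and 98.9 CPM in the mutant, against 88.8 and 89.8 CPM in the wild type, a rise of 0.15 (SE 0.04) on the log2 scale.

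CUS1 (YMR240C), also of SF3b, went the other way, with 21.1 and 22.1 CPM in the mutant against 53.8 and 56.1 CPM in the wild type, a 2.54-fold fall (log2 -1.35, SE 0.05). HSH49, its RNA-binding partner in SF3b, fell by 0.55, so SF3b alone held 2 genes that rose and 2 that fell. Of the 3 SF3a genes, PRP11 (YDL043C) had 22.1 and 23.0 CPM in the mutant, against 50.6 and 48.7 CPM in the wild type (log2 -1.14, SE 0.05), while PRP9 (-0.03) and PRP21 (-0.12) were not called. LEA1, the counterpart of the human U2 protein A′, fell by 0.31, and MSL1, the counterpart of protein B″ and partner of Lea1, was at 0.05 and not called. The largest edgeR adjusted p (Benjamini-Hochberg) of HSH155, RSE1, CUS1 and PRP11 was 0.0009, for RSE1.

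In the tri-snRNP, 8 of 12 genes fell and 4 rose, with a median log2 change of -0.33. All 4 genes for proteins bound to U4/U6 fell. Among them SNU13 (YEL026W, chromosome V, 101943 to 102323), which binds the U4 RNA and is also a core protein of the box C/D particles that modify ribosomal RNA, had 86.6 and 88.5 CPM in the mutant, against 404 and 405 CPM in the wild type. This 4.62-fold fall (log2 -2.21, SE 0.04) was the largest in the particle, and both groups stood well apart. PRP31 fell by 1.02, PRP3 by 0.68 and PRP4 by 0.42. DIB1 (YPR082C), a small U5 protein, had 9.87 and 9.81 CPM in the mutant, against 37.4 and 35.4 CPM in the wild type, a 3.70-fold fall (log2 -1.89, SE 0.06).

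The genes for the large U5 proteins differed from one another. PRP8 (YHR165C, chromosome VIII, 429707 to 436948), which holds the active site, had 280.0 and 286 CPM in the mutant, against 86.0 and 86.8 CPM in the wild type, a 3.27-fold rise (log2 1.71, SE 0.04). BRR2, the helicase that unwinds U4 from U6, rose by 0.29 and SNU114, the GTPase bound to Prp8, fell by 0.24. Of the proteins particular to the tri-snRNP, PRP38 (YGR075C) had 64.8 and 57.0 CPM in the mutant, against 31.4 and 29.3 CPM in the wild type (log2 1.01, SE 0.06). SNU23 rose by 0.94, and SNU66 fell by 1.15. PRP6, which bridges the U4/U6 and U5 parts, fell by 0.20. Of SNU13, DIB1, PRP8 and PRP38, the largest edgeR adjusted p (Benjamini-Hochberg) was 1.7e-10. PRP38 overlaps the Sm gene SMD1 by 6 bases at their ends on opposite strands, and the sources used here do not say how reads there were counted.

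The Prp19 complex split into 5 genes that rose and 7 that fell, with a median log2 change of -0.25. The rise was largest in ECM2 (YBR065C), whose protein contacts U6 in the catalytic core, with 115 and 116 CPM in the mutant against 31.6 and 32.1 CPM in the wild type (3.63-fold, log2 1.86, SE 0.04). PRP46 (YPL151C) had 276 and 295 CPM in the mutant, against 79.2 and 82.8 CPM in the wild type (3.53-fold, log2 1.82, SE 0.04). Its partner in the core, PRP45, rose by 1.09, SNT309, which stabilises the complex, by 0.73 and the scaffold gene SYF1 by 0.34.

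PRP19 itself, which encodes the ubiquitin ligase of the complex, fell by 0.22, the central scaffold genes CEF1 and CLF1 by 0.27 and 0.32, and ISY1 by 0.55. CWC2, which contacts RNA beside Ecm2, fell by 0.64. SYF2 (YGR129W) had 18.5 and 19.3 CPM in the mutant, against 34.2 and 31.7 CPM in the wild type (log2 -0.81, SE 0.06). BUD31 (YCR063W) had the lowest CPM of the 60 genes in every library. It had 2.48 and 2.80 CPM in the mutant, against 6.88 and 7.20 CPM in the wild type (log2 -1.42, SE 0.12). Its lowest library held 142 reads. Per kb of coding length, PRP8 (11.9 CPM) and BRR2 (12.7 CPM) lay below BUD31 (14.9 CPM) in the wild-type means. The largest edgeR adjusted p (Benjamini-Hochberg) of ECM2, PRP46, SYF2 and BUD31 was 2.5e-09. Both neighbours of ECM2 on its own strand, CNM1 and NRG2, were also higher, by 1.82 and 1.70, as were RRD2 and YPL150W beside PRP46, by 1.53 and 1.04; the part of neighbouring reads in the values of ECM2 and PRP46 was not tested.

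Helicases and step factors gave 4 genes higher, 5 lower and 2 not called, with a median log2 change of -0.01; upper quartile scaling, which shifts all log2 changes by 0.10, gave 5 higher and 4 lower, and the filter of 10 CPM gave 6 and 4. Their order along the splicing cycle did not sort by direction. PRP5, which acts when U2 binds, rose by 0.52, and PRP28, which displaces U1 from the 5′ splice site, was at -0.01 and not called. PRP2 (YNR011C), which activates the spliceosome before the first step, had 135 and 138 CPM in the mutant, against 62.4 and 66.3 CPM in the wild type (2.12-fold, log2 1.08, SE 0.04). Its cofactor SPP2 (YOR148C) went the other way, with 21.0 and 22.0 CPM in the mutant against 47.9 and 43.8 CPM in the wild type (log2 -1.09, SE 0.06).

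Genes that act between or after the catalytic steps also divided. YJU2, a factor of the first step, was at 0.03 and not called, and PRP16, the helicase between the steps, fell by 1.07. PRP18 (YGR006W, chromosome VII, 506070 to 506825), a factor of the second step, had 124 and 132 CPM in the mutant, against 17.9 and 19.6 CPM in the wild type, a 6.82-fold rise (log2 2.77, SE 0.05). Its partners in that step did not rise with it: CDC40 fell by 1.03, and SLU7 by 0.11, a call with an edgeR adjusted p (Benjamini-Hochberg) of 0.016 that was lost under some settings and at 0.02 with the filter of 10 CPM. PRP22, which releases the messenger RNA, rose by 0.35. PRP43 (YGL120C, chromosome VII, 281634 to 283937), which takes the spent spliceosome apart and also serves ribosome assembly, had 72.5 and 76.7 CPM in the mutant, against 374 and 356 CPM in the wild type. Its 4.90-fold fall (log2 -2.29, SE 0.04) was the largest of all 60 genes. For PRP18, PRP2, PRP43 and SPP2 the largest edgeR adjusted p (Benjamini-Hochberg) was 2.5e-12.

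Both genes for recognition of the branch point fell. MSL5 (YLR116W, chromosome XII, 380822 to 382252), the branch-point binding protein, had 34.8 and 35.5 CPM in the mutant, against 114 and 121 CPM in the wild type, a 3.35-fold fall (log2 -1.74, SE 0.04). MUD2 (YKL074C), its partner and the counterpart of the large U2AF subunit, had 67.2 and 66.0 CPM in the mutant, against 79.3 and 79.0 CPM in the wild type (log2 -0.25, SE 0.04). The fall of MUD2 was small. Its libraries did not overlap between groups, but this held for 96.4% of all genes tested. The edgeR adjusted p (Benjamini-Hochberg) of MUD2 was 5.3e-06, against 3.5e-17 for MSL5.

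Of the 4 Sm genes, 2 fell, 1 rose and 1 was not called. SMB1 (YER029C) had 23.2 and 21.7 CPM in the mutant, against 59.7 and 56.7 CPM in the wild type (2.59-fold lower, log2 -1.37, SE 0.05). SMD3 (YLR147C) had 26.5 and 26.1 CPM in the mutant, against 37.3 and 34.6 CPM in the wild type (log2 -0.45, SE 0.05). SMB1 and SMD3, whose proteins pair within the ring, thus both fell, while of the pair SMD1 and SMD2 SMD2 alone was called. SMD2 (YLR275W), the gene with an intron, had 56.6 and 57.1 CPM in the mutant, against 33.0 and 30.5 CPM in the wild type (log2 0.84, SE 0.05). SMD1 (YGR074W) had 15.5 and 14.3 CPM in the mutant, against 16.1 and 15.7 CPM in the wild type (log2 -0.09, SE 0.07). By edgeR the adjusted p (Benjamini-Hochberg) was 2.4e-14 for SMB1, 3.2e-07 for SMD3, 1.3e-11 for SMD2 and 0.19 for SMD1.

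Levels of genes can be set against each other once divided by coding length. In the U1 particle, the mean level in the mutant spanned 13.4 CPM per kb (SNU56) to 501 CPM per kb (MUD1), a 37.4-fold range, against 31.0 (SNU56) to 66.5 CPM per kb (NAM8), a 2.15-fold range, in the wild type. Next below MUD1 in the mutant was LUC7, at 162 CPM per kb and 12.1 times the level of SNU56. The extreme genes of U1 thus lay close together in the wild type and far apart in the mutant. The median of its genes was 53.32 CPM per kb in the mutant and 43.05 CPM per kb in the wild type. Ranges of gene sets outside the spliceosome were not computed. Among all genes tested, 53.3% had called changes with a log2 size of 1 or more.

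The other subcomplexes differed in how far their ranges depended on the highest gene. In the Prp19 complex the range was 37.8-fold in the mutant, from BUD31 at 5.57 to PRP46 at 211 CPM per kb, against 6.24-fold in the wild type, from BUD31 at 14.9 to SNT309 at 92.7 CPM per kb. With the next highest gene on top, the Prp19 complex spanned 27.5-fold in the mutant and 4.61-fold in the wild type. Helicases and step factors spanned 16.6-fold in the mutant and 7.84-fold in the wild type, or 5.10-fold in the mutant and 4.07-fold in the wild type with the next highest gene on top. In these groups, as in U1, the mutant range was the wider by either measure.

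In U2 and the Sm genes the order turned with the measure. Sm genes spanned 5.06-fold in the mutant and 3.26-fold in the wild type, but 2.55-fold in the mutant and 2.73-fold in the wild type with the next highest gene on top in place of SMD2 in the mutant and SMD3 in the wild type. U2 genes spanned 4.001-fold in the mutant and 3.20-fold in the wild type, but 2.43-fold in the mutant and 3.09-fold in the wild type below MSL1, the highest in both. The branch-point pair lay 1.75-fold and 1.68-fold apart in the mutant libraries, with MUD2 above MSL5, and 1.59-fold and 1.69-fold apart in the wild-type libraries, with MSL5 above MUD2, so the distances of the groups overlapped. The tri-snRNP was wider in the wild type, at 24.3-fold in the mutant and 88.9-fold in the wild type. That difference lay with SNU13, which had 230 CPM per kb in the mutant and 1062 CPM per kb in the wild type; below SNU13 the ranges were 12.7-fold in the mutant, up to SNU23, and 7.05-fold in the wild type, up to DIB1. No test was made of these ranges, which rest on 2 libraries a group.

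**Figure D3:**
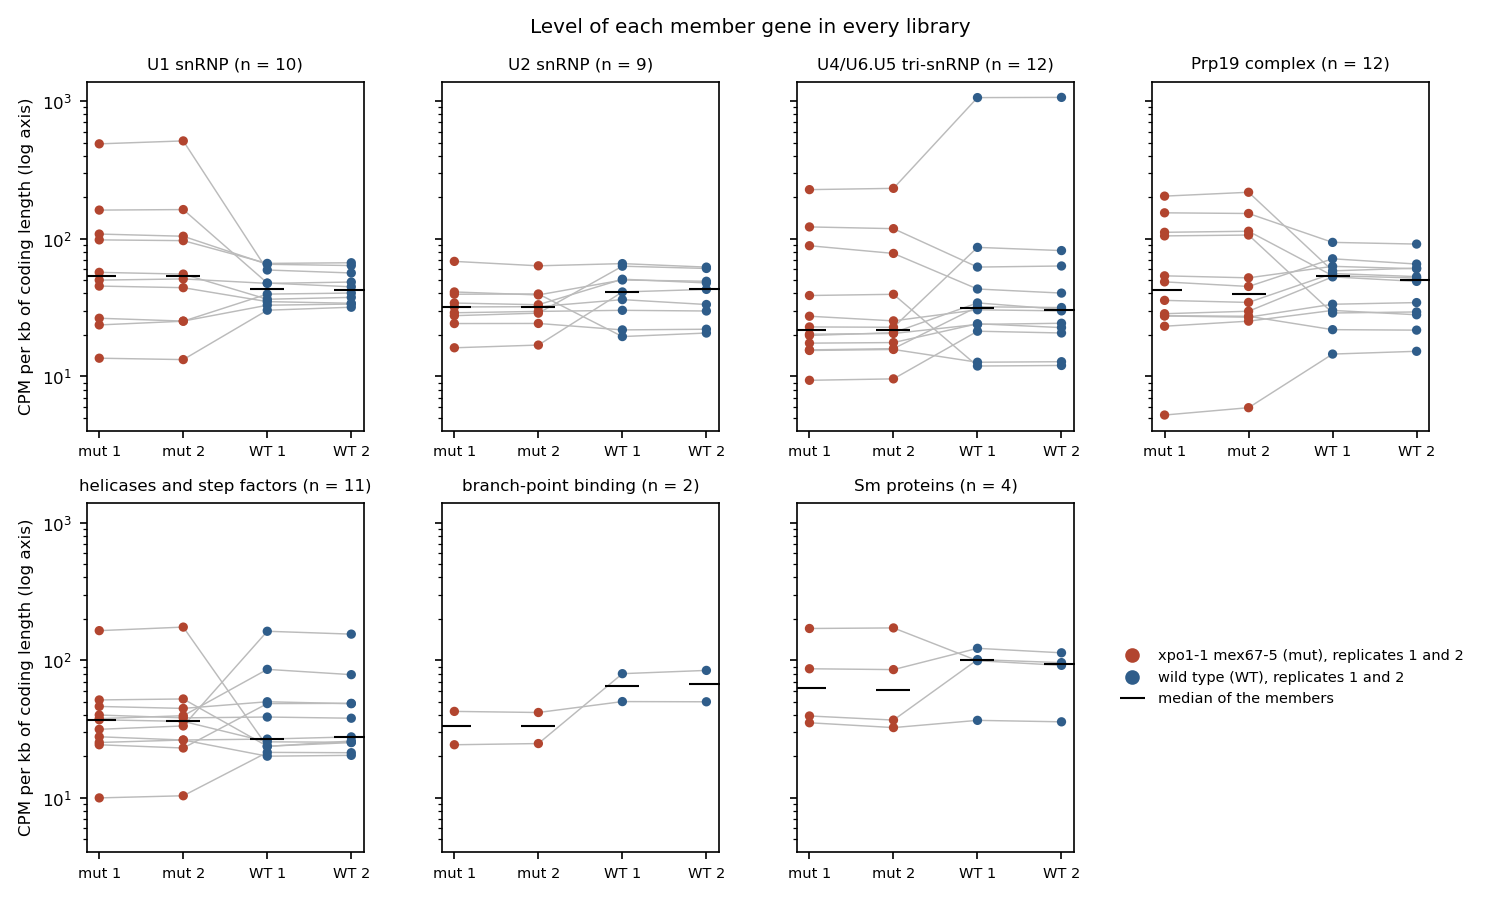
Level of each gene in CPM per kb of coding length (log axis) in the mutant libraries (mut 1, mut 2) and the wild-type libraries (WT 1, WT 2), by subcomplex; grey lines join the values of a gene and black bars are medians. U1 genes spread over 13.4 to 501 CPM per kb in the mutant and lie close together in the wild type, while SNU13 stands alone above the tri-snRNP genes in the wild type.

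More of the longest spliceosome genes rose than of the shorter ones. Of the 15 longest genes, from 1863 to 7242 bases of coding sequence, 10 rose and 5 fell, with a median log2 change of 0.34. Of the 15 shortest, from 306 to 708 bases, 4 rose and 9 fell, with a median of -0.55. The 30 genes between them, from 717 to 1773 bases, had 8 that rose and 17 that fell, with a median of -0.24, so the share that rose was 26.7% in both the short and the middle class. Among all genes tested, 54.4% of those of at least 1863 bases rose and 39.6% fell, and 37.1% of those of up to 708 bases rose and 57.4% fell. Over the 60 genes, the Spearman rank correlation of coding length with log2 change was only 0.16. It was 0.14 over the 5847 genes tested that have a coding length. Genes are not independent replicates, no test was made of the difference between length classes, and these values are descriptions.

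**Figure D4:**
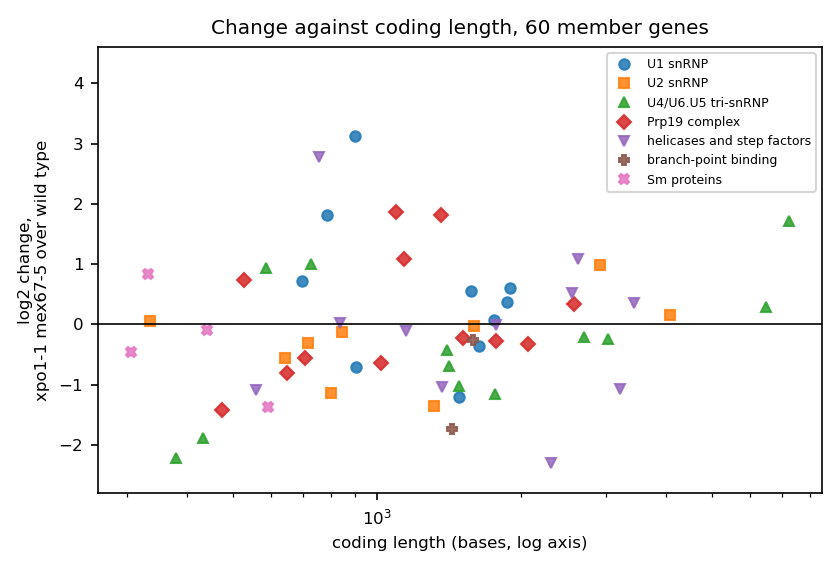
Log2 change in xpo1-1 mex67-5 over wild type (y axis) against coding length in bases (x axis, log) for the 60 genes, with a symbol for each subcomplex. PRP8, the longest at 7242 bases, rose by 1.71, and SNU13, among the shortest, fell by 2.21, but genes below 1000 bases lie over the whole range.

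The other 41 genes of the pathway examined also went both ways, with 14 higher, 23 lower and 4 not called, and a median log2 change of -0.27. The remaining Sm genes and the genes LSM2 to LSM8 fell in 9 of 10, with a median of -1.84. Lsm proteins form the ring of U6 and a cytoplasmic ring of messenger RNA decay. Lsm genes outside LSM2 to LSM8 were not examined. LSM5 had 2.37 and 2.80 CPM in the mutant, against 16.1 and 16.1 CPM in the wild type (log2 -2.65, SE 0.10). SME1, another gene of the Sm ring, had 10.97 and 11.3 CPM in the mutant, against 56.7 and 53.6 CPM in the wild type (log2 -2.31, SE 0.06).

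The exception in the rings was LSM8, which marks the nuclear ring, on very few reads: 32 and 31 in the mutant, against 0 and 4 in the wild type. Its log2 change of 3.70 rests on the wild-type libraries. It was 2.73 with wild-type replicate 1 left out; with replicate 2 left out the wild type had 0 reads, and the fitted 7.92 then depends on the prior count. Tri-snRNP factors rose in 4 of 6 and fell in 1, led by LIN1, a protein that binds U5, with 227 and 207 CPM in the mutant against 20.9 and 21.2 CPM in the wild type (10.3-fold higher, log2 3.36, SE 0.05). Genes of Cwc proteins, the RES complex and proteins associated with Prp19 rose in 4 of 12 and fell in 6, with URN1 at 249 and 260 CPM in the mutant against 46.4 and 48.9 CPM in the wild type (5.33-fold higher, log2 2.42, SE 0.04).

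Of 4 U2 and U6 factors 2 rose and 2 fell. Disassembly and debranching gave 1 higher and 2 lower of 4, and the 1 that rose was DBR1, which opens intron lariats (4.48-fold; named after its value was seen). Cap-binding and cotranscriptional factors rose in 2 of 5 and fell in 3, among them NPL3, a shuttling RNA-binding protein that also aids splicing, with 26.3 and 28.5 CPM in the mutant against 298 and 296 CPM in the wild type (10.8-fold lower, log2 -3.44, SE 0.04). Of LSM5, SME1, LSM8, LIN1, URN1 and NPL3, LSM8 had the largest edgeR adjusted p (Benjamini-Hochberg), at 2.1e-05, and the next was 2.7e-14 for LSM5.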

How the data were processed

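Poly(A) RNA of 4 libraries was measured, 2 of each strain. Each library has deposited counts, not normalized, of reads in genes and in introns. Per the submitters' processing notes, the tools were STAR 2.5, bcl2fastq 2.17, DESeq2 1.8.2 and featureCounts, with genome build R64; the library kit named in the labels' protocols does not mark strand. The assignment of reads in overlapping features is not given in the sources.

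Of 7126 features, 6079 matched RefSeq R64 by systematic name or symbol, the 60 spliceosome genes among them. The other 1047 have no position here, so an overlap with one of them would not be seen. Intron record starts equalled RefSeq intron starts in 355 of 358 records. Unused columns of per-sample values numbered 0. Counts of replicates differed beyond sampling noise, with a chi-square of 7.15 per degree of freedom in the mutant and 10.6 in the wild type, so each library counted as 1 sample.

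The gene test was that of edgeR 4.0.16 in R 4.3.3, with the filterByExpr filter, TMM scaling, robust quasi-likelihood fits of group alone, two-sided F-tests and Benjamini-Hochberg adjustment over all genes tested at 0.05. SE is the log2 change over the root of F. Intron-to-gene ratios were tested as the interaction of feature and group with a term per library, for introns with at least 10 reads in all. Both tests were run on simulated counts in which far fewer genes or introns changed than in the data, so the scaling was not checked by them. DESeq2 1.42.0, other scalings and filters, a replicate block and leaving out each library were alternatives. Coding length is the annotated coding sequence. Intervals cover counting error only. Figures used matplotlib 3.10.9.

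The genes, lists and motifs were chosen with earlier results of these data known. Values per library are given for the 2 largest called rises and 2 largest called falls of each subcomplex, for all branch-point and Sm genes, and for the 3 largest rises and falls of the other splicing genes.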

Additional observations from a re-analysis of the deposited data

How the results depend on the processing

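For the 60 genes, counts higher and lower stayed within 1.5 times their value under the other scalings, tools, filters and replicate sets tried. Genes called lower outnumbered those called higher under each of them, but the margin depended on the setting. A filter of at least 10 CPM in 2 libraries gave 27 higher and 28 lower, and over all genes 2673 higher and 2676 lower. Only a required log2 change of at least 1 moved the counts by more than 1.5 times, to 9 higher and 14 lower (other splicing genes to 5 and 14). By subcomplex this gave 2 higher and 1 lower for U1, 0 and 2 for U2, 2 and 4 for the tri-snRNP, 3 and 1 for the Prp19 complex, 2 and 4 for helicases and step factors, 0 and 1 each for the branch-point pair and the Sm genes; CRM1 was no longer called, leaving 0 lower of the mutated genes. A filter of 10 CPM, which shifted log2 changes by 0.13, raised the U2 count to 4 higher.

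Of 659 comparisons of a spliceosome gene with an alternative (BUD31 has none under the 10 CPM filter), 631 kept direction and call, and none with a main log2 change of over 0.20 in size lost its call. Direction turned in genes near 0: under the 10 CPM filter PRP9 (0.10), PRP21 (0.02), PRP28 (0.13), SLU7 (0.02) and SMD1 (0.04); under upper quartile scaling PRP9 (0.07), PRP28 (0.09) and SMD1 (0.01); for PRP28 with library sizes alone (0.00); and with a library left out in PRP28 (-0.05 to 0.03; above 0 without mutant or wild-type replicate 2), MSL1 (-0.02 to 0.09) and YJU2 (-0.01 to 0.06), both below 0 without mutant replicate 1. PRP6 lost its call under the 10 CPM filter (-0.06), and SLU7 under upper quartile scaling, DESeq2 and 2 sets with a library left out. Calls were gained by PRP40 under upper quartile scaling (0.18), library sizes alone (0.09) and the 10 CPM filter (0.21), by MSL1 (0.15 and 0.18) and YJU2 (0.13 and 0.16) under upper quartile scaling and the 10 CPM filter, and by PRP21 without the filter (-0.13) or wild-type replicate 2 (-0.18). Under the 10 CPM filter PRP9 and PRP28 turned to called rises. Beyond the settings' own shifts, the cause was not tested.

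The replicate block gave 22 higher and 32 lower, adding PRP21 (-0.12), and changed no other call; same-numbered libraries did not deviate together (correlation -0.04), and the labels give no pairing. The intron model already holds a term per library, so no block was added there.

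The MUD1 intron-to-gene ratio was 2.27 on the log2 scale with intron library sizes and 0.96 to 1.05 with a library left out. With 3 consecutive heat shock units required, 0% of promoters of genes that rose, of genes that fell and of all 60 matched, against 0.785% of all promoters. With 2 libraries a group, small changes such as those of PRP40 and PRP21 lay at the edge of the test, and BUD31, with the fewest reads, had the largest error of the 60 genes (SE 0.12).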
